A study of Rattus norvegicus with 8 samples.

Results

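Activity-regulated immediate early genes are taken here as genes that neurons switch on after firing, some of them within minutes and before any new protein is made. Of 34 such genes sought by name, 32 had a protein-coding row among the 34298 genes of the deposited count table, and all 32 passed the filter on low counts together with 16573 genes in all. Ier2 and Vgf were not matched by name and were not analysed here. The genes were measured in the orbitofrontal cortex, a frontal area that weighs the value of actions and outcomes, of adult male Sprague-Dawley rats aged 8 weeks on arrival. In 4 rats circNrxn3, a circle spliced from neurexin 3 (Nrxn3) transcripts, had been targeted at its backsplice junction by a local infusion of 5 ng siRNA in 1 µl with the JetPEI transfection reagent (replicates 1 to 4), and 4 rats had received a scrambled control siRNA in the same way (replicates 1, 3, 4 and 5). Tissue was taken 7 days later, so both groups carry an infusion and a transfection reagent, and no rat without an infusion was compared. The labels call the samples biological replicates, and 1 library is 1 sample. The guide (antisense) strand of the circNrxn3 siRNA is shown because it defines the treated group, with its seed, bases 2 to 8, in capitals.

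circNrxn3 siRNA, antisense strand: uUCCUGUCuagccuuuggauu

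Selection on poly-T beads keeps mainly linear mRNA, so the level of the circle itself was not read. Total counts ran from 28219271 to 35221782 in the circNrxn3 siRNA libraries and from 27589883 to 35191810 in the scrambled siRNA libraries. The 32 genes took 0.135% to 0.216% of the counts in circNrxn3 siRNA libraries and 0.147% to 0.215% in scrambled siRNA libraries. Excitatory neuron markers of the cortex (4 of 5 found, among them Slc17a7 and Tbr1; 1 of them, Camk2a, is also in the upstream list used further on) summed to 2094 to 2698 CPM (counts scaled to library size with TMM factors) in circNrxn3 siRNA libraries and to 2488 to 2900 CPM in scrambled siRNA libraries, and none of the 4 was at 0. These are bulk samples, in which fewer cells of a type and less RNA per cell cannot be told apart.

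Synaptic input raises calcium in the neuron and activates kinases that phosphorylate CREB and the partners of SRF, factors that are already present when the signal arrives. The first proteins made are mostly transcription factors of the FOS/JUN, EGR and NR4A families together with NPAS4. Others act on the synapse (Arc, Nptx2), leave the cell (Scg2, inhibin beta A) or shut the MAP kinase signal off again (the DUSP phosphatases). Many of the rapidly induced transcripts are short-lived, and their level at the time of death reflects the preceding minutes to hours of activity in that animal.

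No immediate early gene passed the test of a difference between the groups. In the edgeR quasi-likelihood test 0 of 32 genes had an adjusted p under 0.05, and over all genes tested 0.0% did. Adjusted p-values of the 32 genes ran from 0.833 to 0.973 (Benjamini-Hochberg over all 16573 genes, edgeR). At an unadjusted p under 0.05 there were 3 of 32 genes, 1 at higher (Nr4a2) and 2 at lower levels (Pcsk1, Egr4) in circNrxn3 siRNA libraries, against a background of 5.59% of all genes in either direction, 2.38% at higher and 3.2% at lower levels. DESeq2 called 0 of the 11 immediate early genes to which it gave an adjusted p, where its background was 0.109%, and limma-voom called 0 of 32. Values of the groups overlapped for each of the 32 genes, whereas 3.48% of all tested genes had groups without overlap, 1.82% with circNrxn3 siRNA higher and 1.65% with it lower. Log2 fold changes, circNrxn3 siRNA over scrambled siRNA, were above 0 for 14 genes and below 0 for 18, with a median of −0.10 beside 0.01 over all tested genes. That median was 0.02 without circNrxn3 siRNA replicate 1 and 0.003 without scrambled siRNA replicate 4. At the other end of the settings run it lay further below 0 than with all libraries, and the full range is given in the closing section. The 95% interval of the fold change lay within 1.5-fold either way for 8 genes and within 2-fold for 22, so that for the other 10 it reached past a 2-fold difference in at least 1 direction.

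**Figure D1:**
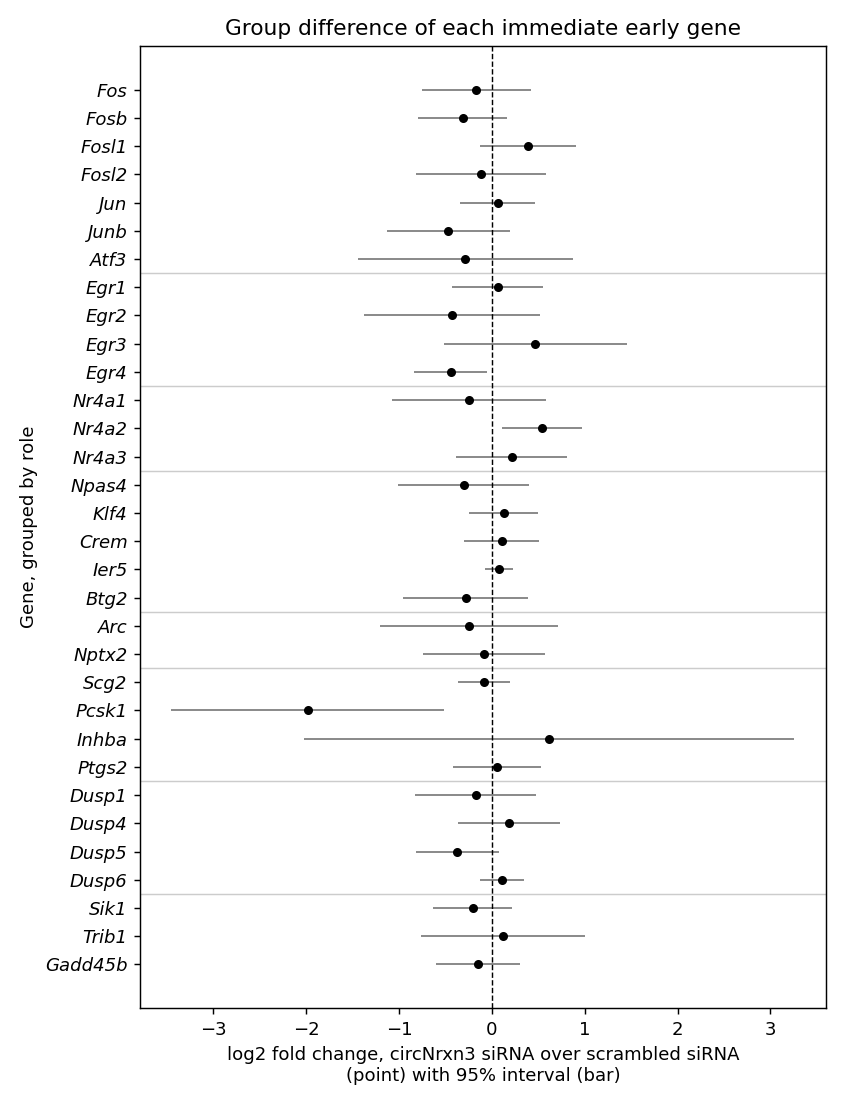
Log2 fold change of circNrxn3 siRNA over scrambled siRNA (x axis, points) with its 95% interval (bars) for 32 immediate early genes, grouped by role (y axis; 4 libraries a group). Intervals for 29 of the genes include 0; those for Pcsk1, Nr4a2 and Egr4 do not, and each of these had an adjusted p of 0.833.

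The AP-1 factors pair FOS with JUN proteins on a shared DNA element. Fos, the gene most used to map active neurons (ENSRNOG00000008015, chromosome 6, 109300433 to 109303299, rn6), was at 16.7, 27.5, 25.7 and 42.5 CPM in circNrxn3 siRNA replicates 1 to 4 and at 25.7, 31.6, 40.3 and 28.8 CPM in scrambled siRNA replicates 1, 3, 4 and 5. The lowest and the highest of the 8 values were both circNrxn3 siRNA libraries, replicates 1 and 4. The fitted log2 difference was −0.17 (standard error, SE, 0.26; adjusted p = 0.918, edgeR). Junb, which dampens the activity of JUN (ENSRNOG00000042838, chromosome 19, 26092974 to 26094756), was at 124, 126, 214 and 241 CPM in circNrxn3 siRNA libraries and at 160, 284, 318 and 214 CPM in scrambled siRNA libraries, in the same order of replicates. Both low circNrxn3 siRNA values, replicates 1 and 2, lay below all scrambled values, and the other two lay among them. Junb had a log2 fold change of −0.47 with a 95% interval of −1.13 to 0.19 (adjusted p = 0.833, edgeR). Per length, Junb was the most abundant of the 32 genes in the deposited FPKM values, at 97.7 ± 33.9 FPKM in circNrxn3 siRNA and 136 ± 40.3 FPKM in scrambled siRNA libraries (SD, n = 4 each). Over all 8 libraries Junb averaged 117 FPKM, Ier5 94.4 FPKM and Arc 84.6 FPKM, an order that did not exceed the spread of Junb and Arc. At the low end Atf3 averaged 0.327 FPKM, Pcsk1 0.214 FPKM and Inhba 0.0959 FPKM.

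Fosb, whose gene also gives the long-lived splice form delta FosB that gene counts cannot tell apart, averaged 9.99 ± 2.18 CPM in circNrxn3 siRNA and 12.4 ± 2.94 CPM in scrambled siRNA libraries (SD, n = 4 each). The fitted log2 difference was −0.32 (SE 0.22). Jun averaged 108 ± 31.4 CPM in circNrxn3 siRNA and 103 ± 12.6 CPM in scrambled siRNA libraries (SD, n = 4 each), with its highest value, 154 CPM, in circNrxn3 siRNA replicate 3. Jun lies within 1 kb of an unnamed gene model on the opposite strand, as do Trib1 and Ptgs2, and Sik1 lies within 1 kb of a model on its own strand. The libraries were strand-marked, but the sources used here do not say if counting used it. Fosl1 and Fosl2, the FOS-related antigens, had log2 fold changes of 0.39 and −0.11. Atf3, a stress-induced factor that marks injured neurons, stayed at low levels, 0.457 to 1.37 CPM in circNrxn3 siRNA libraries and 0.567 to 1.97 CPM in scrambled siRNA libraries. Of these 7 factors 2 had a log2 fold change above 0 and 5 below, with a median of −0.17.

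The EGR factors are zinc-finger proteins that bind GC-rich elements. Egr4 (ENSRNOG00000015719, chromosome 4, 117293620 to 117296082) was at 70.7, 103, 92.3 and 92.9 CPM in circNrxn3 siRNA replicates 1 to 4 and at 88.9, 139, 152 and 107 CPM in scrambled siRNA replicates 1, 3, 4 and 5. The groups overlapped through scrambled siRNA replicate 1, which lay below 3 of the 4 circNrxn3 siRNA values. Its log2 fold change was −0.44 with a 95% interval of −0.84 to −0.05 (unadjusted p = 0.0309, adjusted p = 0.833, edgeR). Egr3, a family member required for muscle spindle development in mice, had another order of libraries. It was at 24.7, 41.0, 11.7 and 27.9 CPM in circNrxn3 siRNA libraries and at 32.5, 11.2, 16.7 and 15.7 CPM in scrambled siRNA libraries, with a log2 fold change of 0.47 (SE 0.43). Its 2 highest values, in circNrxn3 siRNA replicate 2 and scrambled siRNA replicate 1, came from different groups. Egr2 averaged 6.75 ± 3.44 CPM in circNrxn3 siRNA and 9.11 ± 3.55 CPM in scrambled siRNA libraries (SD, n = 4 each; log2 fold change −0.43, SE 0.42). Egr1, the family member with the highest level per length at 69.8 ± 19.6 FPKM in circNrxn3 siRNA and 67.5 ± 14.0 FPKM in scrambled siRNA libraries (SD, n = 4 each), had a log2 fold change of 0.06 with a 95% interval of −0.43 to 0.55.

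The NR4A genes encode orphan nuclear receptors with no known physiological ligand, which are regulated largely through their level. Nr4a2, also called Nurr1 (ENSRNOG00000005600, chromosome 3, 43111240 to 43119159), was at 8.30, 9.63, 5.97 and 8.57 CPM in circNrxn3 siRNA replicates 1 to 4 and at 5.26, 4.92, 7.03 and 5.10 CPM in scrambled siRNA replicates 1, 3, 4 and 5. CircNrxn3 siRNA replicate 3 was the lowest of its group and scrambled siRNA replicate 4 the highest of its own, and the groups overlapped through these libraries alone. The log2 fold change was 0.54 with a 95% interval of 0.11 to 0.97 (unadjusted p = 0.0194, adjusted p = 0.833, edgeR). Nr4a2 is also a standing marker of claustrum and layer 6b neurons. The 8 other markers of these cells summed to 304 to 411 CPM in circNrxn3 siRNA and to 320 to 425 CPM in scrambled siRNA libraries (exact permutation p = 0.771, 2-sided, n = 4 each), and 2 of the 8 had a log2 fold change above 0 and 6 below, 1 of these at an unadjusted p under 0.05. Gng2, 1 of the 8 markers, had a mean log2 CPM of 7.27 over all libraries and made up a large part of the sum. The part of the 8 markers in the Nr4a2 difference was not tested. Nr4a1, or Nur77, at 126 ± 60.1 CPM in circNrxn3 siRNA and 149 ± 45.1 CPM in scrambled siRNA libraries (SD, n = 4 each), had a log2 fold change of −0.24, which ran from −0.59 to −0.065 when 1 library was left out (circNrxn3 siRNA replicate 4 and scrambled siRNA replicate 4). Nr4a3 had 0.21.

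**Figure D2:**
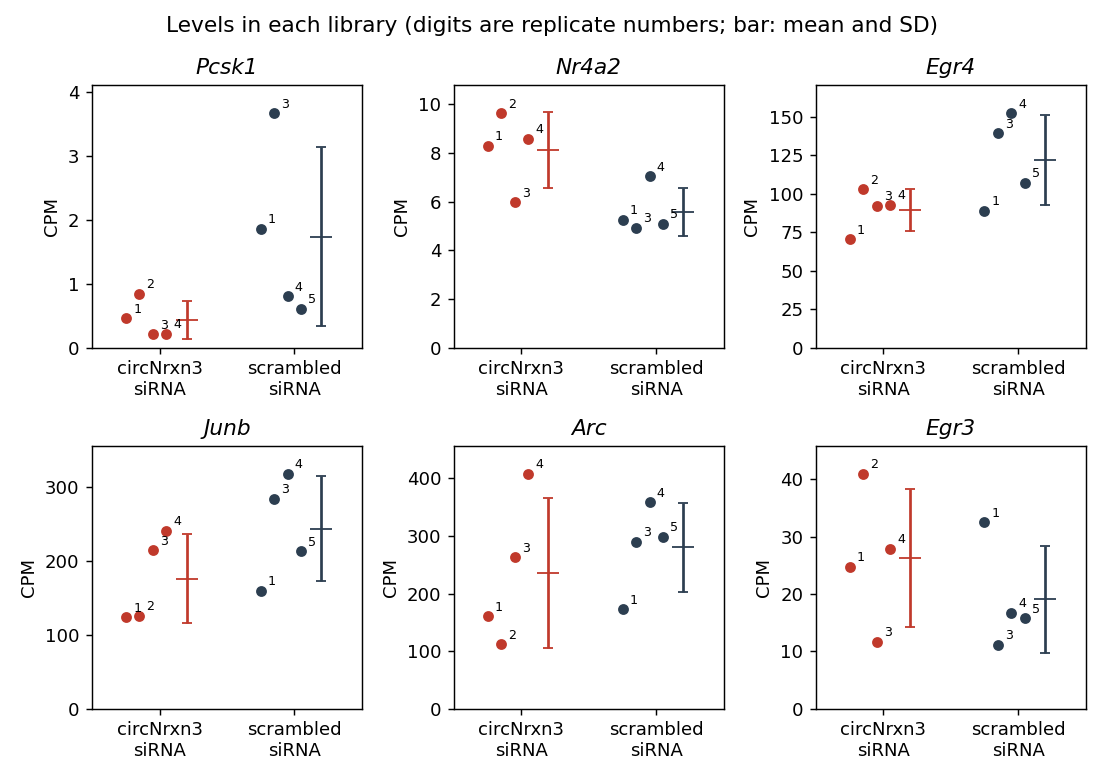
CPM (y axis, from 0) of 6 immediate early genes in each library of the circNrxn3 siRNA group (red, left) and the scrambled siRNA group (dark blue, right); digits are replicate numbers, and bars give the mean and SD of 4 libraries. The groups overlap in each panel; Arc runs from 111 to 408 CPM within the circNrxn3 siRNA group.

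Npas4, a neuron-specific factor that responds to calcium and builds inhibitory synapses, averaged 17.0 ± 6.74 CPM in circNrxn3 siRNA and 20.9 ± 6.40 CPM in scrambled siRNA libraries (SD, n = 4 each; log2 fold change −0.30, SE 0.31). Ier5, a co-regulator of heat shock factor, was the steadiest of the 32 genes. It stood at 121, 137, 142 and 134 CPM in circNrxn3 siRNA libraries and at 128, 126, 126 and 127 CPM in scrambled siRNA libraries. Its log2 fold change was 0.08 with a 95% interval of −0.07 to 0.22. Btg2, an antiproliferative mRNA decay factor, had a log2 fold change of −0.28, Klf4, a zinc-finger factor also expressed by endothelium, 0.13, and Crem, whose internal promoter gives the CREB repressor ICER, 0.10.

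Arc, whose protein forms capsids and removes AMPA receptors from synapses (ENSRNOG00000043465, chromosome 7, 115907097 to 115910541), had the widest spread of the members averaging over 100 CPM. It was at 161, 111, 263 and 408 CPM in circNrxn3 siRNA replicates 1 to 4 and at 172, 290, 359 and 299 CPM in scrambled siRNA replicates 1, 3, 4 and 5. The highest value was 3.66 times the lowest, and both came from the circNrxn3 siRNA group. The fitted log2 difference was −0.25 with a 95% interval of −1.21 to 0.71 (adjusted p = 0.925, edgeR), and it was −0.65 without circNrxn3 siRNA replicate 4 and −0.014 without circNrxn3 siRNA replicate 2. Nptx2, the secreted pentraxin Narp that clusters AMPA receptors, averaged 74.3 ± 24.0 CPM in circNrxn3 siRNA and 78.7 ± 22.1 CPM in scrambled siRNA libraries (SD, n = 4 each; log2 fold change −0.08).

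Among the genes for secreted products and granule enzymes, Pcsk1 had the largest fold change of the 32 and low counts. Pcsk1, prohormone convertase 1/3, which cleaves neuropeptide precursors (ENSRNOG00000011107, chromosome 2, 91450162 to 91497091), had 17, 26, 6 and 7 counts in circNrxn3 siRNA replicates 1 to 4 and 52, 123, 27 and 18 counts in scrambled siRNA replicates 1, 3, 4 and 5. In CPM these were 0.460, 0.849, 0.216 and 0.221 in circNrxn3 siRNA libraries, against 1.86, 3.67, 0.805 and 0.612 in scrambled siRNA libraries. The groups overlapped because circNrxn3 siRNA replicate 2 exceeded scrambled siRNA replicates 4 and 5. The log2 fold change was −1.98 with a 95% interval of −3.45 to −0.51 (unadjusted p = 0.0132, adjusted p = 0.833, edgeR), and it was −1.31 without scrambled siRNA replicate 3. Red blood cell transcripts, summed over 5 genes, were at 359 to 759 CPM in circNrxn3 siRNA libraries and at 607 to 2438 CPM in scrambled siRNA libraries, the highest in scrambled siRNA replicate 3 (exact permutation p = 0.0857, 2-sided, n = 4 each). All 5 of these genes were below 0 in log2 fold change at an unadjusted p under 0.05 (edgeR), against 3.2% of all tested genes. Their median was −1.14 (smallest adjusted p = 0.833, edgeR). Groups did not overlap for 2 of the 5, against 3.48% of all tested genes. The part of these red cell genes in the Pcsk1 value was not tested. Scg2, the granin secretogranin II and a substrate of that enzyme, averaged 114 ± 22.9 CPM in circNrxn3 siRNA and 121 ± 8.16 CPM in scrambled siRNA libraries (SD, n = 4 each; log2 fold change −0.08, 95% interval −0.36 to 0.20). Ptgs2, the inducible cyclooxygenase COX-2 of cortical excitatory neurons, had a log2 fold change of 0.05. Inhba, which encodes the activin A subunit, had 14, 17, 0 and 8 counts in circNrxn3 siRNA libraries and 9, 0, 0 and 14 in scrambled siRNA libraries. A count of 0 there allows a level of up to 0.108 CPM (3 counts, counting error only). The Inhba log2 fold change of 0.61 (SE 1.19) rests on these few counts and cannot be determined at this depth. It ran from 0.14 to 1.53 when 1 library was left out.

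The phosphatases and kinases that close the response did not pass the test, and their intervals do not show that the differences were small. Dusp1, the nuclear MAP kinase phosphatase, was at 88.2, 57.6, 125 and 149 CPM in circNrxn3 siRNA libraries and at 93.6, 123, 153 and 104 CPM in scrambled siRNA libraries (log2 fold change −0.18, SE 0.29). Its library order was close to that of Arc and Nr4a1, which also had their lowest value in circNrxn3 siRNA replicate 2. Dusp5, a nuclear phosphatase for ERK, averaged 7.08 ± 0.528 CPM in circNrxn3 siRNA and 9.18 ± 2.70 CPM in scrambled siRNA libraries (SD, n = 4 each; log2 fold change −0.37, unadjusted p = 0.0911, adjusted p = 0.833, edgeR). Without scrambled siRNA replicate 4 its log2 fold change was −0.16. Dusp6, the cytoplasmic ERK phosphatase, had a log2 fold change of 0.10 and Dusp4 0.18. Sik1, a salt-inducible kinase that keeps CREB coactivators out of the nucleus, had −0.20, the pseudokinase Trib1 0.12 and the DNA demethylation adaptor Gadd45b −0.15.

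Animals of the same group differed widely in these genes. The SD of log2 CPM within groups had a median of 0.39 over the 32 genes and 0.24 over all tested genes, and 28 of the 32 genes lay above that all-gene median. The median gene of the set stood at percentile 68.5 of all tested genes, and at percentile 91.5 when each was ranked among the genes of its own expression decile, a comparison chosen after seeing the data. Within its decile, Arc (SD 0.66) stood at percentile 99.8, Nr4a1 (0.58) at 99.5, Nptx2 (0.49) at 99.0 and Junb (0.48) at 99.0, while Ier5 (0.07) stood at 12.2. The highest library was at least 2 times the lowest for 19 of the 32 genes, and for 37.2% of all tested genes. The difference between group means was under the within-group SD for 25 of 32 genes, and for 75.4% of all tested genes.

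**Figure D3:**
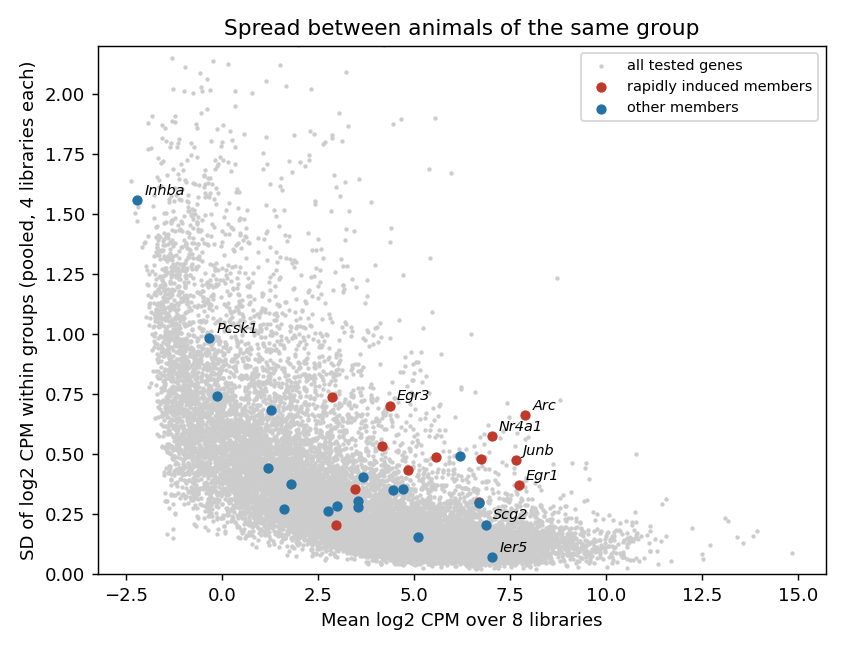
SD of log2 CPM within groups (y axis, pooled over both groups of 4 libraries) against mean log2 CPM (x axis) for 16573 tested genes (grey), the 13 rapidly induced immediate early genes (red) and the 19 others (blue). Arc, Nr4a1 and Junb lie along the upper edge of the genes at their level, and Ier5 (SD 0.07) near the lower one.

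A group of 14 genes known for induction within minutes (Fos, Fosb, Junb, Egr1 to Egr4, Arc, Npas4, Nr4a1, Ier2, Dusp1, Btg2 and Klf4, of which 13 were measured) was read library by library. Their mean deviation from each gene's own mean, in log2 CPM, was −0.46, −0.19, −0.15 and 0.36 in circNrxn3 siRNA replicates 1 to 4 and −0.16, 0.19, 0.46 and −0.05 in scrambled siRNA replicates 1, 3, 4 and 5. CircNrxn3 siRNA replicate 4 and scrambled siRNA replicate 4 were thus the highest, with 11 and 12 of the 13 genes above their mean, and circNrxn3 siRNA replicate 1 the lowest, with 2. In both groups the mean deviation rose from replicate 1 through 3 to 4, and the labels do not say whether shared numbers pair animals. The mean deviation spanned 0.82 within the circNrxn3 siRNA group and 0.62 within the scrambled siRNA group, and the group means differed by −0.22 (circNrxn3 siRNA minus scrambled siRNA). The median log2 fold change of the 13 genes was −0.25, with 3 above and 10 below 0. It was −0.46 without circNrxn3 siRNA replicate 4, −0.10 without circNrxn3 siRNA replicate 1, −0.13 without circNrxn3 siRNA replicate 2 and −0.11 without scrambled siRNA replicate 4. For the 19 other genes the deviation ran from −0.21 to 0.16 in circNrxn3 siRNA and from −0.12 to 0.06 in scrambled siRNA libraries. Their median log2 fold change was 0.06, with 11 above and 8 below 0. Jun, Nr4a2, Nr4a3 and Ier5, all above 0, were counted among these 19. The list of rapid genes was drawn with earlier results of these data known, so the contrast between the sets depends on that choice.

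The genes did not share 1 order of libraries. CircNrxn3 siRNA replicate 2 held the highest value for 9 of the 32 genes (Egr1, Egr3, Nr4a2, Nr4a3, Fosl1, Dusp4, Ptgs2, Scg2 and Inhba) and the lowest for another 9, among them Arc, Nr4a1, Dusp1, Btg2 and Gadd45b. Over all tested genes that library was the highest for 15.4% and the lowest for 13.6%. CircNrxn3 siRNA replicate 1 was the lowest for 10 genes, beside 14.7% of all tested genes, and the highest for 1. Scrambled siRNA replicate 4 was the highest for 9 genes, among them Junb, Egr4, Npas4, Btg2 and Dusp1, beside 13.1% of all tested genes.

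**Figure D4:**
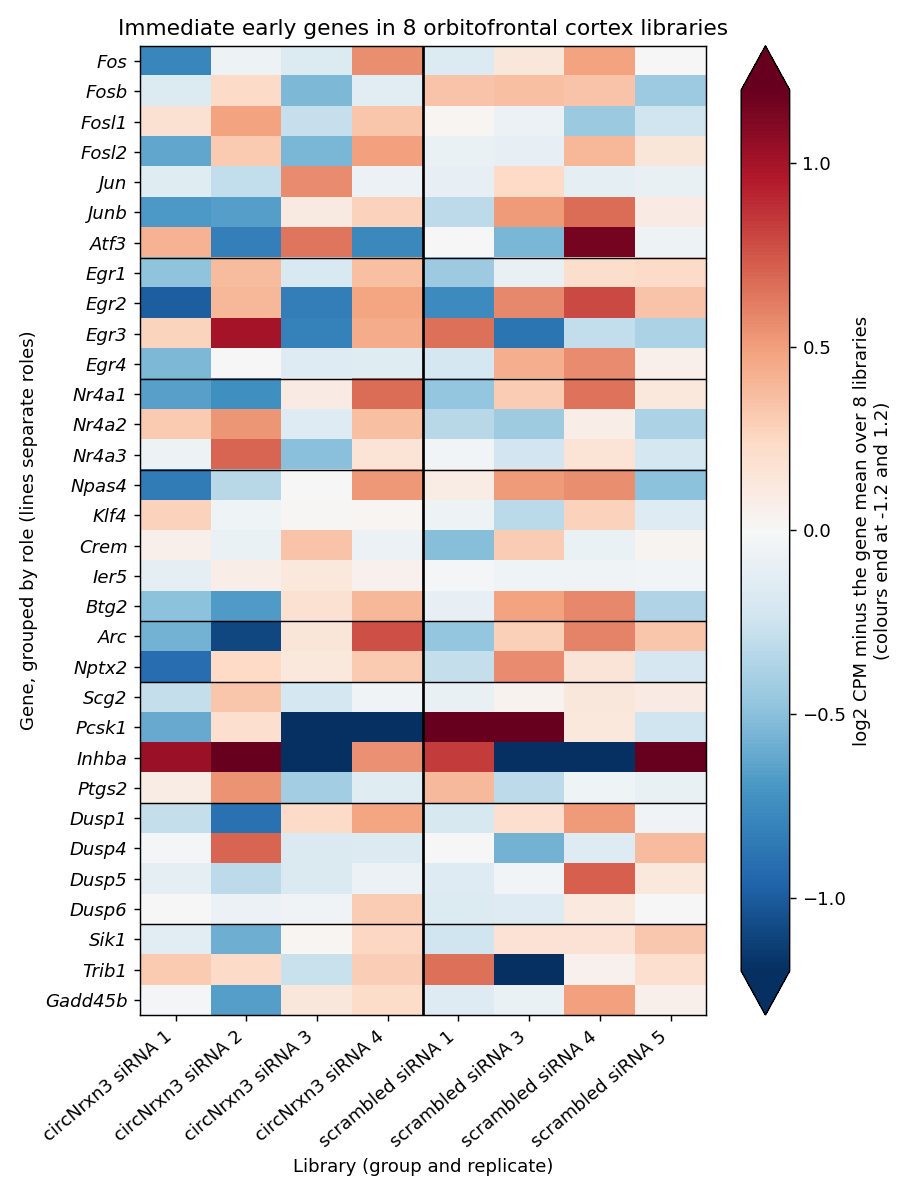
Deviation of log2 CPM from each gene's mean over the 8 libraries (colour; red above, blue below, ending at −1.2 and 1.2) for 32 immediate early genes (rows, grouped by role) in circNrxn3 siRNA libraries (left of the line) and scrambled siRNA libraries (right). Replicate 4 of both groups is red for most rapidly induced genes, and circNrxn3 siRNA replicate 2 is blue for Arc, Nr4a1 and Dusp1 and red for Egr3 and Nr4a3.

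A measure of transcript length also differed between the libraries. The mean log2 CPM of gene models over 3486 bp minus that of models under 1372 bp, centred on the 8 libraries, was 0.08, 0.15, −0.05 and 0.005 in circNrxn3 siRNA replicates 1 to 4 and 0.06, −0.08, −0.15 and −0.01 in scrambled siRNA replicates 1, 3, 4 and 5 (exact permutation p = 0.2, 2-sided, n = 4 each). It was highest in circNrxn3 siRNA replicate 2 and lowest in scrambled siRNA replicate 4, each the highest library for 9 genes. CircNrxn3 siRNA replicate 1, the lowest library for 10 genes, had the highest ratio after circNrxn3 siRNA replicate 2. It also had the lowest mean deviation of the rapidly induced genes, −0.46. With this ratio as a covariate in the edgeR fit, 0 of 32 genes passed, the median log2 fold change was 0.04, and 16 of the 32 fold changes had the opposite sign. The median of the 13 rapidly induced genes was then 0.07, with 8 above and 5 below 0. Arc was then at 0.24, Nr4a1 at 0.25, Dusp1 at 0.21, Fos at 0.07 and Egr3 at −0.09, whereas Nr4a2 was at 0.50, Pcsk1 at −2.63 and Fosb at −0.43. Egr4 was at −0.25 and Junb at −0.02, closer to 0 than without the covariate. What sets the ratio in each library was not tested.

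**Figure D5:**
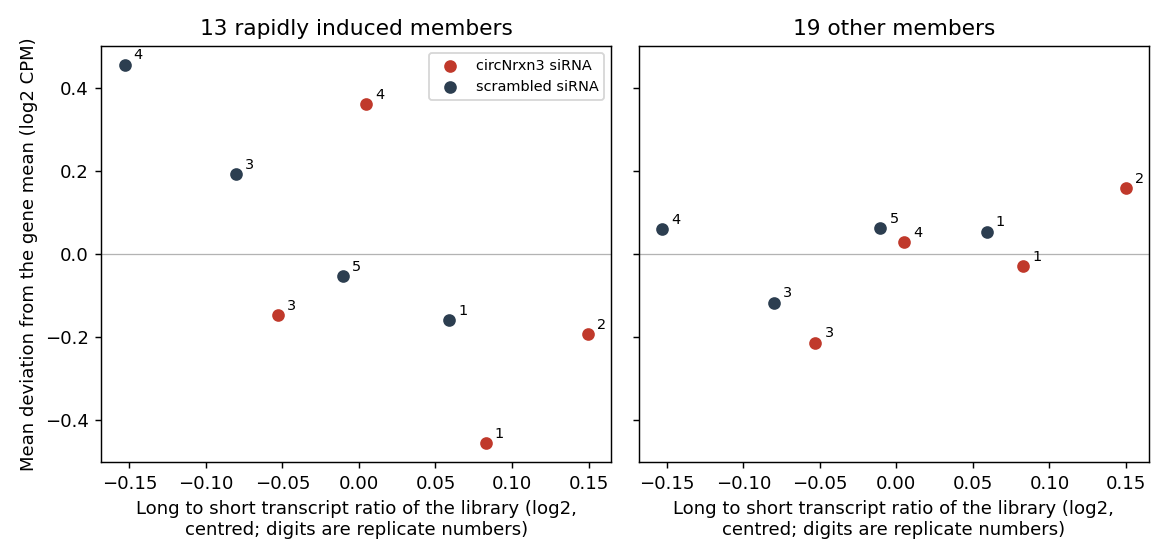
Mean deviation of log2 CPM from the gene mean (y axis) against the centred log2 ratio of long to short transcripts of the library (x axis) for the 13 rapidly induced genes (left) and the 19 others (right); red points are circNrxn3 siRNA, dark blue points scrambled siRNA libraries, and digits are replicate numbers. Scrambled siRNA replicate 4 has the lowest ratio (−0.15) and the highest mean deviation of the rapidly induced genes (0.46).

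Promoter sequence was read for what the genes share beyond their induction. RefSeq windows from 250 bases before to 50 after the start (GRCr8) were matched by symbol for 23 of the 32 genes; those of Fos, Jun, Arc, Atf3, Dusp4, Egr3, Nr4a3, Pcsk1 and Trib1 were not matched. The core of the cyclic AMP response element, TGACG on either strand, stood in 15 of 23 genes (65.2%), against 21.2% of all 33365 windows and 31.7% of the tested protein-coding genes with a window. The full palindrome TGACGTCA, which contains that core, stood in 4 of 23 (Btg2, Crem, Dusp1 and Scg2; 17.4%), in 1.83% of all windows and in 3.16% of the tested genes. The CArG box bound by SRF stood in Dusp5, Egr1 and Egr2 (13.04%, against 1.63% of all windows and 1.33% of the tested genes). The AP-1 element TGANTCA stood in 0 of 23, against 7.34% of all windows and 5.40% of the tested genes, too few genes to read as a lack. TATAAA on either strand stood in 5 of 23 (21.7%, against 14.2% of all windows and 7.69% of the tested genes). Ier5, Inhba and Junb held it on the strand of the gene, and Fosb and Klf4 only on the opposite strand. The EGR element, GCGTGGGCG or GCGGGGGCG on either strand, stood in 4 of 23 (17.4%, against 3.21% of all windows and 6.37% of the tested genes). These matches are descriptions of letters in a window, not of binding.

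The windows of Egr4 and Nr4a2 are shown because these genes had the smallest p-values among the genes with a window, and those of Dusp1 and Egr1 because they hold the full palindrome and the CArG box. Capitals mark TGACG on either strand, the palindrome and the CArG box. Each is printed 5′ to 3′ on the strand of its gene, at chr4:119607768-119608067 (minus strand) for Egr4, chr3:62104838-62105137 (minus) for Nr4a2, chr10:17184603-17184902 (plus) for Dusp1 and chr18:26736828-26737127 (plus) for Egr1, in GRCr8.

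Egr4: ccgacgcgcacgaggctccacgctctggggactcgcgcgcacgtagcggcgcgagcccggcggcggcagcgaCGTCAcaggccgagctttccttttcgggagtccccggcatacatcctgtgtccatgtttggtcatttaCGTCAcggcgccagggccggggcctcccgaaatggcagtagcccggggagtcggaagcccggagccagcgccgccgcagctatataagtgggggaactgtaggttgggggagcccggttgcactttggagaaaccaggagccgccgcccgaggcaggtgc

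Nr4a2: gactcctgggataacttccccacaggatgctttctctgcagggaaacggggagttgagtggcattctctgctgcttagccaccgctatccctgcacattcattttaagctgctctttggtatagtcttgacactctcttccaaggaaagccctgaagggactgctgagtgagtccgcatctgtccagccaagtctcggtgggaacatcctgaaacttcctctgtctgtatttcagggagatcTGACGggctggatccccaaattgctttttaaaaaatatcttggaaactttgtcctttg

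Dusp1: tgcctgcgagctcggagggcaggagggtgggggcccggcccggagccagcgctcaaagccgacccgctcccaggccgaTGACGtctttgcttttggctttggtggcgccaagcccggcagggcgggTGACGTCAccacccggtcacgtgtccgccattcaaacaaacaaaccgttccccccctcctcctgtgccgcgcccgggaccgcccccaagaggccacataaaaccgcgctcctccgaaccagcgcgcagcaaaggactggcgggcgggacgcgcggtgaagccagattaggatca

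Egr1: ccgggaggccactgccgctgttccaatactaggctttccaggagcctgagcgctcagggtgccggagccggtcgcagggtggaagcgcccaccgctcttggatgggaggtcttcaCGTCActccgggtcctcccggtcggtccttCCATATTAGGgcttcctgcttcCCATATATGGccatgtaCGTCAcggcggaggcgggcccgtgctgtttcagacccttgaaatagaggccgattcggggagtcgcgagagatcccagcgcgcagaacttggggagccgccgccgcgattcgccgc

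Egr1 held 2 CArG boxes and 2 TGACG cores, the farthest starting at position −135 from its start, and Nr4a2 a single TGACG core 8 bases before its start. Egr4 and Egr1, both with 2 TGACG cores and of 1 family, had log2 fold changes of −0.44 and 0.06. Both were lowest in circNrxn3 siRNA replicate 1, and the highest library was scrambled siRNA replicate 4 for Egr4 and circNrxn3 siRNA replicate 2 for Egr1.

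Other genes known to follow neuronal activity gave no call either. Of 40 listed, 38 were tested and 0 passed, with 13 log2 fold changes above 0 and 25 below and a median of −0.05. Groups did not overlap for 2 of the 38, beside 3.48% of all tested genes. Sgk1, a kinase induced by activity and glucocorticoids, was at 42.4, 45.0, 46.5 and 46.5 CPM in circNrxn3 siRNA libraries and at 37.5, 34.8, 40.8 and 40.04 CPM in scrambled siRNA libraries (log2 fold change 0.24, SE 0.08, unadjusted p = 0.0108, adjusted p = 0.833, edgeR). Sertad1, a cell cycle co-regulator, was at 15.7, 12.7, 14.1 and 14.1 CPM in circNrxn3 siRNA libraries and at 17.6, 19.2, 21.6 and 18.1 CPM in scrambled siRNA libraries (log2 fold change −0.44, SE 0.11, unadjusted p = 0.0027, adjusted p = 0.833, edgeR). The neurofilament gene Nefm had 0.44 and the factor Cebpb −0.34. The mean deviation of these 38 genes stayed between −0.07 and 0.06 in circNrxn3 siRNA and between −0.04 and 0.09 in scrambled siRNA libraries.

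Of 40 genes of the upstream pathway (CREB and SRF, their partners, and the calcium, cyclic AMP and MAP kinase steps that reach them), 39 were tested and 0 passed, with 27 log2 fold changes above 0, 12 below and a median of 0.07. Groups did not overlap for 1 of the 39, Ppp3r1, against the same 3.48% of all tested genes. The calcineurin subunits Ppp3cb and Ppp3r1 had 0.38 and 0.16, and the MAP kinase pathway genes Map2k2 (MEK2) and Mapk3 (ERK1) −0.20 and −0.29, each with an adjusted p of 0.833 (edgeR). The mean deviation of this list was 0.04, 0.21, −0.19 and 0.03 in circNrxn3 siRNA replicates 1 to 4 and 0.17, −0.13, −0.18 and 0.04 in scrambled siRNA replicates 1, 3, 4 and 5. Within the groups it was highest in circNrxn3 siRNA replicate 2 and scrambled siRNA replicate 1, and lowest in circNrxn3 siRNA replicate 3 and scrambled siRNA replicate 4. The long-to-short ratio was highest and lowest within the groups in the same libraries. The part of that ratio in this list was not tested.

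Markers of other cells that can carry these transcripts were read beside them. Endothelial and mural markers, relevant for Klf4, summed to 107 to 145 CPM in circNrxn3 siRNA and to 119 to 137 CPM in scrambled siRNA libraries, with Cldn5 at 0 counts in all 8 libraries. Striatal markers, relevant for the edge of the dissection, summed to 449 to 530 CPM in circNrxn3 siRNA and to 479 to 612 CPM in scrambled siRNA libraries. Deep-layer markers summed to 196 to 309 CPM in circNrxn3 siRNA and to 177 to 263 CPM in scrambled siRNA libraries. Of the 7 deep-layer genes 6 had a log2 fold change above 0 and 1 below, with a median of 0.29 (smallest adjusted p = 0.833, edgeR). Of the striatal markers 2 were above and 6 below, with a median of −0.09. Of the tested endothelial and mural markers 1 was above and 4 were below, with a median of −0.12. In each of these lists the ranges of the groups overlapped, and their part in the values of the immediate early genes was not tested.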

How the data were processed

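Per the submitters' processing notes, fastp, HISAT2 2.0.5, StringTie 1.3.3b and featureCounts 1.5.0-p3 were used with the build rn6, without roles or settings. The authors deposited whole-number read counts per gene and FPKM values. The library totals implied by the FPKM values followed DESeq2's size factors, which means that the deposited FPKM had been scaled across libraries. The 32 members, their role groups, the other gene lists and the tests were chosen with earlier results of these data known. The rule names all members, the 2 genes with the smallest p in each direction of the other activity and upstream lists, and the promoters of the 3 members with the smallest p, Fos and Arc where a window was matched; the Dusp1 and Egr1 windows and single markers were added after values were seen. From the excitatory neuron markers 1 gene is not reported here and was left out of their sum.

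Columns were matched to samples by title, and pairs of libraries in a group all differed by more than sampling noise (chi-square over its degrees of freedom, 23.2 to 47.4). The counts were fitted with edgeR 4.0.16 (filterByExpr, minimum count 10; TMM; robust quasi-likelihood F test, no covariates) in R 4.3.3, with 2-sided p-values adjusted by Benjamini-Hochberg over 16573 genes and a threshold of 0.05. Standard errors are the fold change over the square root of F. CPM values use the TMM factors, and deviations use log2 CPM with a prior count of 2. The calls were tested on simulated data for this comparison with 16573 genes, of which a sample, none at the lowest levels, was given a change. Of the changed genes edgeR recovered 24.7% at a 1.5-fold change, 59.3% at 2-fold and 85.3% at 4-fold, with 10 false among 272 calls. The 32 immediate early genes varied more within groups than all tested genes (median SD of log2 CPM 0.39 against 0.24). Recovery for these genes was not simulated separately. Alternatives were other scalings and filters, DESeq2 1.42.0, limma-voom (limma 3.58.1), limma-trend on log2 FPKM, a replicate block, a length-ratio covariate and leaving out each library; those of the median of the 13 rapidly induced genes were added after seeing the data.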

Additional observations from a re-analysis of the deposited data

Results flagged for a closer look

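In 64 sets of 4 libraries (32 genes in each group), 4 had 1 library far from the other 3 by Dixon's test, where chance flags about 1 set in 20. Jun was at 122 CPM in scrambled siRNA replicate 3 and at 96.4 to 97.3 CPM in the other scrambled siRNA libraries. Dusp4 was at 20.6 CPM in circNrxn3 siRNA replicate 2, against 11.2 to 12.5 CPM in the rest of that group. Fosb was at 8.02 CPM in scrambled siRNA replicate 5, and at 13.8 to 14.0 CPM in the other 3 scrambled siRNA libraries. Nr4a2 was at 7.03 CPM in scrambled siRNA replicate 4, against 4.92 to 5.26 CPM in the others of its group, and without that library its log2 fold change was 0.67 (adjusted p = 0.977, edgeR; range over the alternatives with an adjusted p 0.491 to 0.9999).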

How the results depend on the processing

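In every setting run, 0 immediate early genes passed the threshold, while the median log2 fold change ran from −0.18 to 0.04. With all 8 libraries the groups overlapped for each gene in TMM-scaled CPM, RLE-scaled CPM and deposited FPKM. Over all genes, DESeq2 called 18 where edgeR called 0 (926 at an unadjusted p under 0.05), and leaving out 1 library gave 0 to 1 calls, the single call without circNrxn3 siRNA replicate 2 or 3. The percentile of the spread was 68.5, or 91.5 among genes of the same level, an alternative chosen after seeing the data. For 40 named genes, 750 of 794 alternative values kept direction and side of the threshold, 44 reversed direction in 20 genes, and 0 passed.

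With the long-to-short ratio as a covariate, log2 fold changes reversed to 0.24 for Arc, 0.25 for Nr4a1, 0.21 for Dusp1, 0.12 for Nptx2, 0.13 for Btg2, 0.070 for Fos, −0.28 for Ptgs2, −0.094 for Egr3, 0.14 for Gadd45b, 0.016 for Npas4, −0.13 for Dusp4, 0.000707 for Sik1, −0.0019 for Nr4a3, −0.14 for Trib1, 0.20 for Atf3 and −1.01 for Inhba. Leaving out 1 library also reversed some of these same genes, and Egr1, Jun, Crem and Fosl2 besides. Fold changes then ran from −0.063 to 0.21 (Egr1), −0.39 to 0.027 (Dusp1), −0.17 to 0.16 (Jun), −0.20 to 0.13 (Nptx2), −0.44 to 0.016 (Fos), −0.15 to 0.21 (Ptgs2), −0.25 to 0.013 (Gadd45b), −0.070 to 0.35 (Dusp4), −0.025 to 0.23 (Crem), −0.037 to 0.37 (Nr4a3), −0.17 to 0.41 (Trib1), −0.60 to 0.21 (Atf3) and −0.33 to 0.051 (Fosl2). The cause was not tested.

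Replicate numbers 1, 3 and 4 occur in both groups. Same-numbered libraries deviated together with r = 0.369, 0.299 and 0.0866, so the numbers were not taken as pairs, although circNrxn3 siRNA replicates 1, 3 and 4 each correlated best with their own number, a hint from the data and not the design. A replicate block on these 6 libraries called 0 of 31 immediate early genes and 0 of all genes, with a median of −0.08 (−0.08 without the block). The smallest edgeR adjusted p-values of immediate early genes were then 0.0935 for Junb (−0.39) and 0.0995 for Egr4 (−0.55), against 0.9999 for both in the same libraries without the block. Under the block Ptgs2 reversed to −0.17, Gadd45b to 0.025, Sik1 to 0.011 and Nr4a3 to −0.10; without it Arc reversed to 0.018, Ptgs2 to −0.18, Sik1 to 0.0059 and Nr4a3 to −0.083. Depth limits Inhba, Pcsk1 and Atf3, which had under 20 counts in at least 1 library.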
